A study of Homo sapiens with 32 samples.

Results

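The heterogeneous nuclear ribonucleoproteins (hnRNPs) described here are HNRNPA1, HNRNPA2B1, HNRNPC, HNRNPD, HNRNPF, HNRNPH1, HNRNPK, HNRNPL, HNRNPM and HNRNPU. They were taken by name, 10 genes of the 35238 listed, and all 10 passed the filter on low values that left 17011 genes for testing. Bulk RNA sequencing covered 4 established human endometrial cancer cell lines. Ishikawa is labelled CTNNB1-wildtype, and Ishikawa-S33Y, SNGM and HEC265 are labelled CTNNB1-mutated, CTNNB1 being the gene of beta-catenin. Each line received vehicle (0.1% DMSO), paclitaxel, the inhibitor of CDC-like kinases (CLKs) SM08502, or both drugs for 24 h, with 2 samples in each of the 16 groups. Each drug was given at the IC50 for viability of that line. Paclitaxel was given at 11 nM to Ishikawa, 6 nM to Ishikawa-S33Y, 11.7 nM to SNGM and 5.6 nM to HEC265. SM08502 was given at 80 nM to Ishikawa, 85 nM to Ishikawa-S33Y, 350.7 nM to SNGM and 149 nM to HEC265. Drug effects in different lines are therefore effects of different concentrations. The labels do not say whether Ishikawa-S33Y is a clone or a pool. The cells were plated in duplicate, and p-values measure the spread between such duplicates.

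The hnRNPs are abundant nuclear RNA-binding proteins that coat nascent transcripts and take part in splicing, export, stability and translation. Many of them repress the use of nearby splice sites and so act against the SR proteins, which promote exon inclusion and are phosphorylated by CLKs. Paclitaxel, a taxane, stabilises microtubules and acts mainly on dividing cells.

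Reads counted to genes came to between 13026400 and 34127623 in 30 libraries. Replicate 2 of the combination had 2991041 in Ishikawa-S33Y and 1607038 in SNGM, and the fewest reads of any of the 10 genes in any library was 181, for HNRNPM. Epithelial markers (EPCAM, CDH1, KRT8, KRT18, KRT19) had a mean above 1 CPM in every line, 5 of 5. Of the markers of endometrial epithelium (PAX8, SOX17, HOXA10, ESR1), 4 of 4 were above that level in Ishikawa and in Ishikawa-S33Y and 3 of 4 in SNGM (not SOX17) and in HEC265 (not ESR1). CPM is the reads of a gene scaled to a fixed library total. The libraries also differed in how well long transcripts were represented. A length score, the mean log2(CPM + 1) of 29 genes with very long mRNAs less that of 75 ribosomal protein genes, which have short mRNAs, ran from -3.24 to -1.77 in Ishikawa, from -2.21 to -1.47 in Ishikawa-S33Y, from -1.32 to -0.79 in HEC265 and from -0.73 to -0.08 in SNGM. In HEC265 the score was -1.32 to -1.14 in libraries with SM08502, alone or combined, and -1.05 to -0.79 in those without. In Ishikawa-S33Y it was -2.21 to -1.81 with and -1.62 to -1.47 without, and in Ishikawa and SNGM these ranges overlapped. An SM08502 change with the score as a covariate is thus adjusted for something that moved with the drug in 2 lines. What lowered the score was not tested. Ishikawa libraries were made from 350 ng of RNA and all others from 500 ng.

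Promoter sequence is shown for the gene that fell most and the gene that rose most with SM08502 in a single line, HNRNPD and HNRNPA2B1, which were picked for this after their values were seen. Sequences are RefSeq's, build GRCh38.p14, and entries matched 9 of the 10 genes, HNRNPA1 being the exception. The 250 bases before the first annotated start of HNRNPD lie at chr4:82373992-82374241 on the minus strand, and those of HNRNPA2B1 at chr7:26200747-26200996 on the minus strand. Capitals mark the motifs searched. In HNRNPD the first is the ETS family motif CCGGAAG, which is read there on the opposite strand. It is followed by TATAAA, the letters searched for the TATA box, with the first base at -126 from the start. Next comes the GC box, for which the letters searched were GGGCGG. The last is the E-box, searched in its palindromic form CACGTG. In HNRNPA2B1 the first is the motif CCAAT, read on the opposite strand. The other is a part of the cyclic AMP response element, searched as TGACGT.
HNRNPD: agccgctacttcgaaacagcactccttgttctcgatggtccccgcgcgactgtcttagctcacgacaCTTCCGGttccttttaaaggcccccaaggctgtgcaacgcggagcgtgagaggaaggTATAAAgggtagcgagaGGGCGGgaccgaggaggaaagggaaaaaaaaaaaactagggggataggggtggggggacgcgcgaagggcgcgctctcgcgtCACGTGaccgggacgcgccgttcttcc
HNRNPA2B1: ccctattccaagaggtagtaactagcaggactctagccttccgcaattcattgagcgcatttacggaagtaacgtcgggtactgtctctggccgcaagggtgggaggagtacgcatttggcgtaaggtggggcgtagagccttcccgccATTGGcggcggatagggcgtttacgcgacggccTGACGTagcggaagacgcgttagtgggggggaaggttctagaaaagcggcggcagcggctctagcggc

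Motifs were looked for on both strands of windows from 250 bases before to 50 bases after each annotated start, 300 bases in all, and no motif of those listed contains another. The motif GCCATNTT, the core bound by YY1, was in at least 1 window of 3 of the 9 genes, against 7.97% of all 27305 genes with a window. These 3 were HNRNPC, HNRNPD and HNRNPM, and 30 bases around each match follow, with the match in capitals, from chr14:21269409-21269438, chr4:82373969-82373998 and chr19:8444985-8445014.
HNRNPC: gagactcggggGCCATTTTgtgaagagacg
HNRNPD: ttcttccgtcgGCCATTTTaggtggtccgc
HNRNPM: cagacgcggagAAAATGGCggcaggggtcg
The match in HNRNPM is on the opposite strand. GGGCGG was in 7 of the 9 genes against 48.3% of all, CCAAT in 7 against 39.7%, TATAAA in 2 against 14%, CCGGAAG in 2 against 12.2%, TGACGT in 2 against 9.64%, CACGTG in 2 against 8.77% and the NRF1 motif in 2 against 6.98%. A gene was counted when any of its windows held the motif. The 9 genes had 15 windows and the 27305 genes had 35116, so the 9 had more windows per gene. This favours matches in the 9 genes, and the shares were not adjusted for it. A match is a stretch of letters and was not tested as a binding site.

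The 10 genes together took 0.329% to 0.560% of the counted reads of a library. In the 8 HEC265 libraries their sum was 5143 to 5597 CPM, and in the 24 libraries of the other lines it was 3289 to 4257 CPM, so the ranges did not overlap. The highest single value of HNRNPU was 5.12 times its lowest, that of HNRNPD 4.34 times, HNRNPM 3.12 times, HNRNPA2B1 2.98 times and HNRNPC 2.23 times. For the other 5 genes this ratio lay between 1.72 and 1.92. The plot of levels in each library shows the separation by line.

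**Figure D1:**
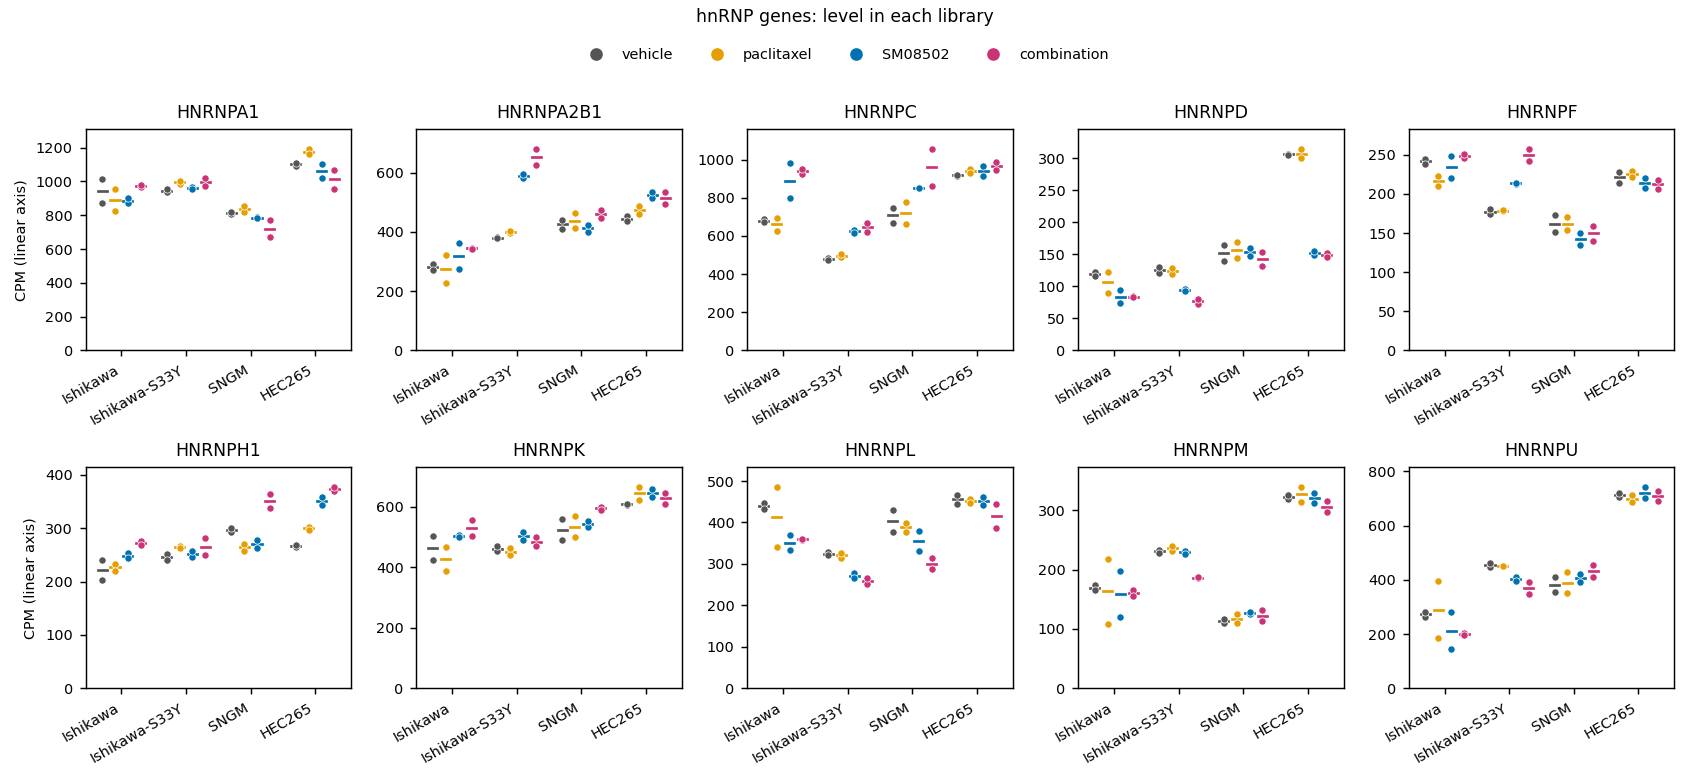
Level of each hnRNP gene in the 32 libraries, in CPM on a linear axis from 0, by cell line (x axis) and treatment (colour). Points are libraries and horizontal bars are means of 2. HNRNPD in HEC265 falls from 307 and 306 CPM on vehicle to 149 and 155 CPM on SM08502, and HNRNPA2B1 in Ishikawa-S33Y rises from 381 and 379 to 584 and 596 CPM.

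The first question was how the basal level on vehicle differed between lines. All 10 genes differed across the 4 lines by limma's moderated F-test (Benjamini-Hochberg adjusted p from 1.23e-08 for HNRNPD to 0.00524 for HNRNPA1), as did 86.9% of the 17011 genes tested, so this count is close to the background. Genes with an adjusted p under 0.05 count as called in single comparisons. HEC265 was higher than Ishikawa in 7 of the 10 genes and lower in 0, where 63.3% of all genes were called, 24.9% higher and 38.3% lower. It was higher than Ishikawa-S33Y in 6 and lower in 0 (58% called, 26.6% higher and 31.4% lower), and higher than SNGM in 6 and lower in 0 (54.9% called, 26% higher and 28.9% lower). The median log2 difference of the 10 genes was 0.41, 0.44 and 0.41 in these comparisons, beside -0.17, -0.08 and -0.04 over all genes tested. The 3 comparisons share the HEC265 vehicle samples. SNGM against Ishikawa gave 3 higher and 2 lower (66.8% called, 28% higher and 38.8% lower), and SNGM against Ishikawa-S33Y 3 higher and 1 lower (60.8%, 28.1% and 32.7%). The length score runs with the line, and with it as a covariate, an alternative added after seeing the data, these counts changed. The slope of that fit comes only from differences between duplicates, which were widest in Ishikawa, at -1.77 and -3.24 on paclitaxel. Between lines that slope is carried over to gaps such as -2.86 and -2.50 in Ishikawa against -0.47 and -0.08 in SNGM on vehicle. Line differences with the covariate are therefore extrapolations. With the covariate HEC265 was higher in 2 genes and lower in 0 against Ishikawa (HNRNPC and HNRNPD), higher in 5 and lower in 0 against Ishikawa-S33Y, and higher in 8 and lower in 0 against SNGM. SNGM was higher in 1 and lower in 5 against Ishikawa, and higher in 1 and lower in 3 against Ishikawa-S33Y.

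HNRNPD, also called AUF1, binds AU-rich elements and takes part in the decay of the mRNAs that carry them. On vehicle it stood at 123 and 115 CPM in Ishikawa, 121 and 131 CPM in Ishikawa-S33Y, 139 and 165 CPM in SNGM and 307 and 306 CPM in HEC265. Every HEC265 sample lay far above every other sample, and the Ishikawa and Ishikawa-S33Y ranges overlapped. The log2 difference of HEC265 was 1.35 from Ishikawa (SE 0.133, adjusted p = 1.12e-08), 1.28 from Ishikawa-S33Y (adjusted p = 2.8e-08) and 1.01 from SNGM (adjusted p = 1.28e-06, limma). SNGM was above Ishikawa by 0.35 (adjusted p = 0.0266). With the length score as a covariate HEC265 stayed above Ishikawa (0.74), Ishikawa-S33Y (1.04) and SNGM (1.20), while SNGM against Ishikawa turned to -0.45.

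HNRNPM, which binds GU-rich sequence and is known from splicing in epithelial and mesenchymal states, and HNRNPU, a scaffold attachment factor that binds RNA and chromatin, were likewise highest in HEC265. HNRNPM measured 174 and 166 CPM in Ishikawa, 234 and 228 CPM in Ishikawa-S33Y, 110 and 116 CPM in SNGM and 319 and 326 CPM in HEC265. SNGM was lowest and HEC265 highest with no overlap between any of the 4 lines. The log2 difference of HEC265 from SNGM was 1.50 (SE 0.208, adjusted p = 2.55e-06) and that of SNGM from Ishikawa-S33Y was -1.02 (adjusted p = 0.000216), whereas Ishikawa-S33Y against Ishikawa was not called (0.44, adjusted p = 0.0872). The fit shares 1 spread per gene among all groups, so this SE also holds the wide duplicate differences of HNRNPM in drug-treated Ishikawa. HNRNPU measured 263 and 283 CPM in Ishikawa, 445 and 463 CPM in Ishikawa-S33Y, 354 and 411 CPM in SNGM and 705 and 721 CPM in HEC265. Its difference of HEC265 from Ishikawa was 1.38 (adjusted p = 4.49e-05) and from SNGM 0.90 (adjusted p = 0.00378). With the length score as a covariate HEC265 remained above SNGM for HNRNPM (1.86) and HNRNPU (1.34), but against Ishikawa the values became -0.24 and -0.036. HNRNPU was also higher in HEC265 than in Ishikawa-S33Y (0.65, adjusted p = 0.0283), which was 0.10 with the covariate.

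HNRNPA2B1, which binds UAG-containing RNA and takes part in splicing and RNA transport, was lowest in Ishikawa at 291 and 271 CPM, against 381 and 379 CPM in Ishikawa-S33Y, 409 and 442 CPM in SNGM and 454 and 437 CPM in HEC265. The lines other than Ishikawa were not called against each other (adjusted p from 0.142 to 0.711). No line was called against Ishikawa for HNRNPA2B1 with the length score as a covariate, at 0.09 for Ishikawa-S33Y, -0.14 for SNGM and 0.10 for HEC265 (adjusted p = 0.592, 0.535 and 0.618). HNRNPA1, its close relative and a classical silencer of exons, measured 1017 and 875 CPM in Ishikawa, with Ishikawa-S33Y at 935 and 956 CPM, SNGM at 810 and 817 CPM and HEC265 at 1092 and 1110 CPM. Only HEC265 against SNGM was called for it (0.44, SE 0.103, adjusted p = 0.00109), among 6 comparisons of lines.

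HNRNPC, which binds uridine tracts and keeps cryptic exons out of mRNA, was lowest in Ishikawa-S33Y at 485 and 472 CPM. It measured 686 and 675 CPM in Ishikawa, 748 and 668 CPM in SNGM and 917 and 918 CPM in HEC265. Ishikawa and SNGM overlapped, with Ishikawa-S33Y below both and HEC265 above both. HEC265 lay above Ishikawa-S33Y by 0.94 (SE 0.114, adjusted p = 3.08e-07). HNRNPF, which binds G tracts, was at 244 and 238 CPM in Ishikawa, 174 and 180 CPM in Ishikawa-S33Y, 173 and 151 CPM in SNGM and 228 and 214 CPM in HEC265. Ishikawa and HEC265 lay above the other lines, and SNGM was below Ishikawa by -0.58 (adjusted p = 1.1e-05). HNRNPH1, its close relative, was lowest on average in Ishikawa, with SNGM higher by 0.42 (adjusted p = 0.000218) and HEC265 by 0.27 (adjusted p = 0.0106). HNRNPK, a binder of C-rich sequence with KH domains, measured 502 and 424 CPM in Ishikawa, 454 and 469 CPM in Ishikawa-S33Y, 558 and 490 CPM in SNGM and 604 and 610 CPM in HEC265. HEC265 was above all other samples, by 0.40 from Ishikawa (adjusted p = 0.00284). These calls against Ishikawa ended with the length score as a covariate: HNRNPH1 was then at 0.34 for SNGM (adjusted p = 0.0841) and at 0.21 for HEC265 (adjusted p = 0.208), and HNRNPK at 0.31 for HEC265 (adjusted p = 0.135).

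**Figure D2:**
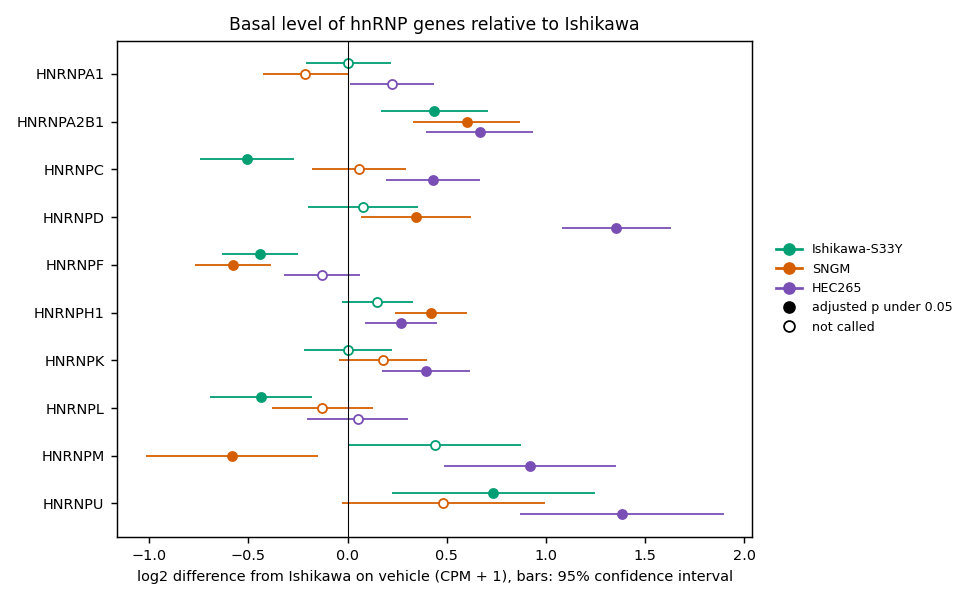
Basal level of each hnRNP gene in Ishikawa-S33Y, SNGM and HEC265 as the log2 difference from Ishikawa, all on vehicle, on the CPM + 1 scale; points are fitted differences, bars their 95% confidence intervals, and filled points have an adjusted p under 0.05. HNRNPD and HNRNPU in HEC265 lie farthest right, at 1.35 and 1.38.

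Ishikawa-S33Y against Ishikawa is the comparison of a CTNNB1-mutated line with the wild-type line that shares its name. Of the 10 genes, 2 were higher and 3 lower, where 48.3% of all genes were called, 20% higher and 28.2% lower. HNRNPC was lower by a log2 difference of -0.51 (SE 0.114, adjusted p = 0.000922), HNRNPF by -0.44 (SE 0.0925, adjusted p = 0.000466) and HNRNPL, which binds CA repeats, by -0.44 (adjusted p = 0.0056). HNRNPL stood at 447 and 433 CPM in Ishikawa and 329 and 321 CPM in Ishikawa-S33Y, with no overlap. HNRNPA2B1 was higher by 0.44 (adjusted p = 0.00807) and HNRNPU by 0.73 (adjusted p = 0.0176). With the length score as a covariate HNRNPA2B1 was no longer called (0.09), HNRNPU turned to -0.14, and HNRNPC was at -0.26 (adjusted p = 0.0674), whereas HNRNPF and HNRNPL kept their call. The RNA input also differed between these lines, and its part cannot be told apart from that of the line. The summed level of 4 stromal markers (COL1A1, COL1A2, DCN, PDGFRB) was 710 to 1160 CPM in Ishikawa-S33Y and 29.7 to 192 CPM in Ishikawa, nearly all of it COL1A1, with DCN and PDGFRB under 1 CPM on average in both lines, and its part in these differences was not tested.

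The second question was how SM08502 changed these genes. The strongest fall was that of HNRNPD in HEC265, from 307 and 306 CPM on vehicle to 149 and 155 CPM, a log2 change of -1.0 (SE 0.133, adjusted p = 2.79e-05). The strongest rise was that of HNRNPA2B1 in Ishikawa-S33Y, from 381 and 379 to 584 and 596 CPM, a log2 change of 0.63 (SE 0.13, adjusted p = 0.000982). In each case drug and vehicle samples did not overlap, and both calls held under all 17 alternatives run. In Ishikawa 1 of the 10 genes rose and 1 fell, where 15.2% of all genes were called, 6.5% higher and 8.68% lower. Ishikawa-S33Y had 3 that rose and 1 that fell, beside 29.1% of all genes, 18.5% higher and 10.6% lower. For HEC265 the counts were 1 and 1, beside 14.7%, 9.27% higher and 5.39% lower. SNGM had 0 calls among the 10, beside 7.86%, 3.8% higher and 4.06% lower. In SNGM 1 of the 10 had an unadjusted p under 0.05 by limma, and voom on recovered reads also called 0. Taking the lines in the order of their concentrations given above, the median change of the 10 genes was -0.07, 0.03, -0.02 and 0.00, beside 0.00, 0.11, 0.00 and 0.07 over all genes. Re-centring moved the median of all genes in Ishikawa-S33Y from 0.11 to 0.06. With voom and TMM scaling the medians of the 10 genes were -0.07, -0.14, -0.05 and -0.12, beside -0.0027, -0.016, -0.028 and -0.019 over all genes. In bulk samples fewer cells of a kind and less RNA per cell cannot be told apart.

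HNRNPD on SM08502 measured 94.6 and 73.2 CPM in Ishikawa, 95.9 and 92.6 CPM in Ishikawa-S33Y and 147 and 160 CPM in SNGM. All 4 treated samples of Ishikawa and Ishikawa-S33Y lay below all 4 vehicle samples of those lines, while in SNGM the treated values lay within the vehicle range of 139 to 165 CPM. The log2 change was -0.51 in Ishikawa (adjusted p = 0.0124), -0.41 in Ishikawa-S33Y (adjusted p = 0.0239) and 0.02 in SNGM (95% confidence interval -0.26 to 0.29, adjusted p = 0.993). Averaged over the 4 lines with equal weight it was -0.48 (SE 0.0664, adjusted p = 8.72e-06), a call kept under all 28 alternatives. The changes differed between lines by the interaction F-test (adjusted p = 0.00791; 12.4% of all genes were called), and HEC265 minus SNGM was -1.02 (SE 0.188, adjusted p = 0.00521; 2.03% of all genes were called). After SM08502 the HEC265 level of HNRNPD, 152 ± 4.34 CPM (SD, n = 2), was close to that of SNGM, 154 ± 9.45 CPM. The Ishikawa call was lost when replicate 2 of SM08502 was left out (-0.33, adjusted p = 0.222), without vehicle replicate 1 and in a fit to Ishikawa alone (adjusted p = 0.213), and the Ishikawa-S33Y call was lost whichever of its 4 libraries was left out (adjusted p from 0.0576 to 0.158). In HEC265 the length score was -0.79 and -0.89 on vehicle and -1.15 and -1.28 on SM08502, and with the score as a covariate the HNRNPD change there was -0.88 (adjusted p = 6.07e-07).

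HNRNPA2B1 on SM08502 measured 361 and 275 CPM in Ishikawa, 400 and 424 CPM in SNGM and 516 and 534 CPM in HEC265. The HEC265 samples lay above their vehicle samples, and those of Ishikawa and SNGM overlapped theirs. The changes of 0.17 in Ishikawa (95% confidence interval -0.10 to 0.44), -0.05 in SNGM (-0.32 to 0.22) and 0.24 in HEC265 (-0.03 to 0.51) were not called, but HEC265 was with the length score as a covariate (0.35, adjusted p = 0.00569). The mean over lines was 0.25 (SE 0.0648, adjusted p = 0.00453). The interaction F-test was not passed (adjusted p = 0.0707; passed in 6 of 28 alternatives, with adjusted p from 0.00105 to 0.197), although the single comparison of SNGM minus Ishikawa-S33Y was (-0.68, SE 0.183, adjusted p = 0.0226; 9.83% of all genes were called). In Ishikawa-S33Y the length score was -1.47 and -1.62 on vehicle and -1.81 and -1.85 on SM08502, and with it as a covariate the HNRNPA2B1 change there was 0.72 (adjusted p = 2.16e-06). HNRNPA1, by contrast, had changes from -0.09 to 0.02 in the 4 lines and -0.04 on average (95% confidence interval -0.15 to 0.06, adjusted p = 0.547).

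HNRNPC on SM08502 measured 796 and 983 CPM in Ishikawa, 629 and 618 CPM in Ishikawa-S33Y, 849 and 851 CPM in SNGM and 916 and 968 CPM in HEC265. In Ishikawa, Ishikawa-S33Y and SNGM all treated samples were above all vehicle samples of the line, and in HEC265 they overlapped. The log2 change was 0.38 in Ishikawa (adjusted p = 0.0283) and 0.38 in Ishikawa-S33Y (adjusted p = 0.0156), while 0.27 in SNGM (adjusted p = 0.186) and 0.04 in HEC265 (adjusted p = 0.941) were not called. The mean over lines was 0.27 (SE 0.0569, adjusted p = 0.000889) and kept its call under all 28 alternatives. The call in Ishikawa ended without SM08502 replicate 2 (0.23, adjusted p = 0.34), and also without either vehicle replicate. That in Ishikawa-S33Y ended whichever of its 4 libraries was left out (adjusted p from 0.0621 to 0.0947), after re-centring on the median (adjusted p = 0.119) and with voom (adjusted p = 0.18).

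Of the G-tract binders, HNRNPH1 rose in HEC265 from 264 and 269 CPM to 343 and 359 CPM, with no overlap. Its log2 change was 0.39 (SE 0.0871, adjusted p = 0.00365), and it became 0.30 (adjusted p = 0.0717) after re-centring on the median. It measured 240 and 204 against 253 and 244 CPM in Ishikawa, 251 and 241 against 245 and 258 CPM in Ishikawa-S33Y and 292 and 301 against 278 and 263 CPM in SNGM, vehicle first. SNGM thus had lower treated than vehicle samples and HEC265 higher. The interaction F-test gave an adjusted p of 0.0296, and HEC265 minus SNGM was 0.53 (SE 0.123, adjusted p = 0.0249). The mean over lines of 0.11 (adjusted p = 0.0424) lost its call in 16 of 28 alternatives. HNRNPF rose in Ishikawa-S33Y from 174 and 180 CPM to 213 and 214 CPM, a change of 0.27 (SE 0.0925, adjusted p = 0.0353). In SNGM it moved from 173 and 151 to 134 and 150 CPM (-0.19, adjusted p = 0.273), and SNGM minus Ishikawa-S33Y was -0.45 (adjusted p = 0.032). Of these differences between lines, the HNRNPF one lost its call in 9 of 20 alternatives, that of HNRNPH1 in 9 and that of HNRNPA2B1 in 6, while HNRNPD kept its call in all 20. The remaining 4 pairs of lines gave 0 calls among the 10 genes, beside 2.43% of all genes for Ishikawa-S33Y minus Ishikawa, 3.66% for SNGM minus Ishikawa, 2.56% for HEC265 minus Ishikawa and 5.66% for HEC265 minus Ishikawa-S33Y. At an unadjusted p under 0.05 (limma) these pairs had 2, 2, 2 and 5 of the 10 genes. Under the length score covariate they had 1 (HNRNPA2B1), 2 (HNRNPD and HNRNPU), 3 (HNRNPC, HNRNPD and HNRNPU) and 4 called (HNRNPA2B1, HNRNPC, HNRNPD and HNRNPH1). The HNRNPF call in Ishikawa-S33Y was lost in 8 of 17 alternatives, among them voom (0.10, adjusted p = 0.468).

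HNRNPL was called in no single line, with changes of -0.32 in Ishikawa (adjusted p = 0.0776), -0.26 in Ishikawa-S33Y (adjusted p = 0.126), -0.18 in SNGM (adjusted p = 0.472) and -0.01 in HEC265. Its mean over lines was -0.19 (SE 0.0613, adjusted p = 0.0164) and kept its call under all 28 alternatives. In Ishikawa-S33Y it was called after re-centring on the median (-0.31, adjusted p = 0.0309) and with voom (-0.42, adjusted p = 0.00343), and in Ishikawa with voom (-0.33, adjusted p = 0.0314) and with the length score as a covariate (-0.29, adjusted p = 0.0286). HNRNPK had changes of 0.06 to 0.12 and a mean of 0.10 (95% confidence interval -0.01 to 0.21, adjusted p = 0.165). Averaged over the lines, then, 3 genes rose (HNRNPA2B1, HNRNPC and HNRNPH1) and 2 fell (HNRNPD and HNRNPL), where 38.5% of all genes were called, 22.6% higher and 15.8% lower.

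**Figure D3:**
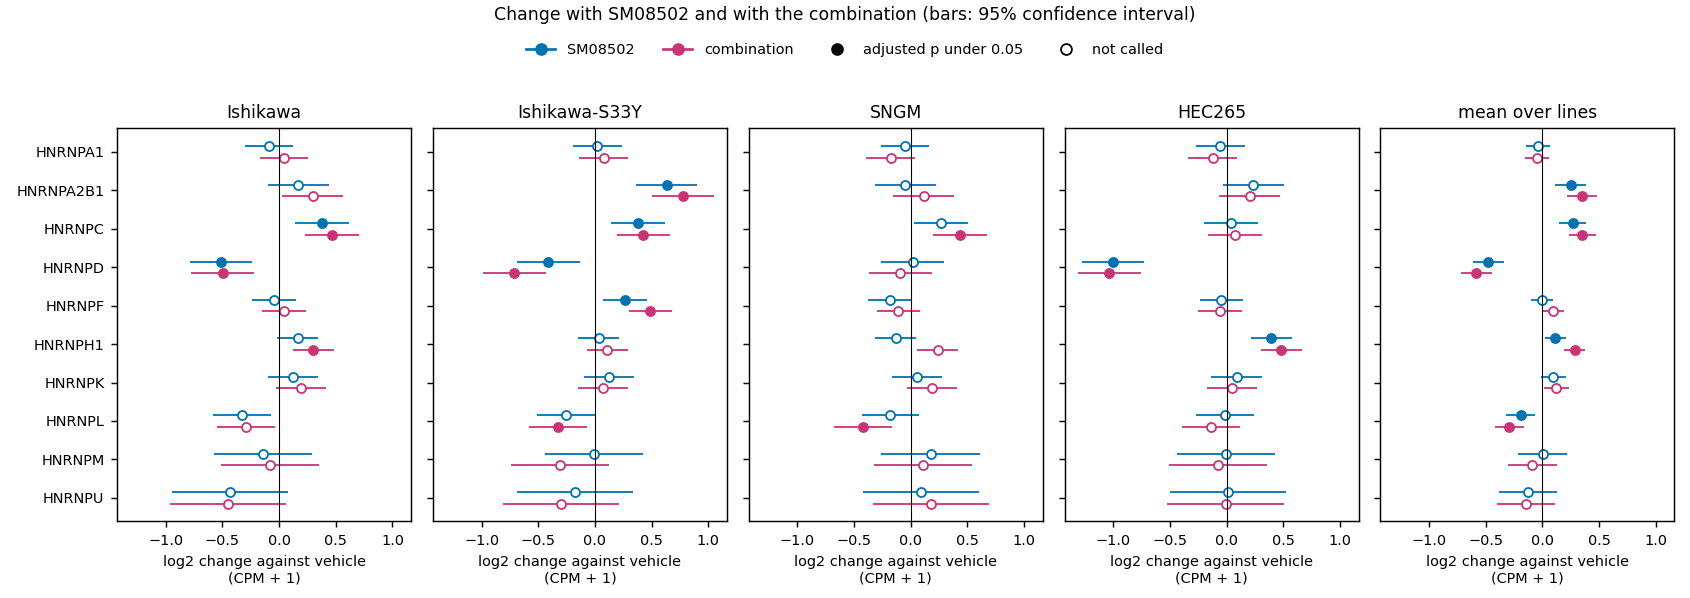
Change of each hnRNP gene with SM08502 (blue) and with the combination (magenta) against vehicle, in each line and as the mean over lines, on the log2(CPM + 1) scale. Points are fitted changes, bars 95% confidence intervals, and filled points have an adjusted p under 0.05; both treatments are compared with the same vehicle samples. HNRNPD lies at -1.0 and -1.04 in HEC265 and at 0.02 and -0.09 in SNGM.

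HNRNPM and HNRNPU were measured least precisely in Ishikawa. HNRNPU was at 280 and 145 CPM in the SM08502 replicates and at 395 and 184 CPM in the paclitaxel replicates, and HNRNPM at 198 and 120 CPM and at 218 and 109 CPM. In each pair replicate 2 was the lower, and so was its length score, at -3.18 against -2.45 on SM08502 and -3.24 against -1.77 on paclitaxel. The plot of level against length score shows that HNRNPU and HNRNPM were higher in Ishikawa libraries with higher scores. Because all groups share 1 spread per gene, these duplicate differences in Ishikawa also widen the intervals of both genes in the other lines. The SM08502 change of HNRNPU was -0.44 in Ishikawa (95% confidence interval -0.95 to 0.08, adjusted p = 0.251) and -0.13 on average (-0.38 to 0.13), and that of HNRNPM -0.14 (-0.57 to 0.29) and 0.00 (-0.21 to 0.22). With the length score as a covariate the SE of HNRNPU in Ishikawa fell from 0.246 to 0.103, and its change was called in Ishikawa (-0.33, adjusted p = 0.0227) and, in the other direction, in HEC265 (0.30, adjusted p = 0.042). The HNRNPU mean became 0.06 (adjusted p = 0.406), its interaction F-test was passed (adjusted p = 0.00851), and the HNRNPM mean was called at 0.16 (adjusted p = 0.0197). Without replicate 2 of both drugs in Ishikawa, an alternative added after seeing the data, the SM08502 change of HNRNPD there was -0.33 (adjusted p = 0.0735), that of HNRNPC 0.23 (adjusted p = 0.207) and that of HNRNPA2B1 0.36 (adjusted p = 0.0118).

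**Figure D4:**
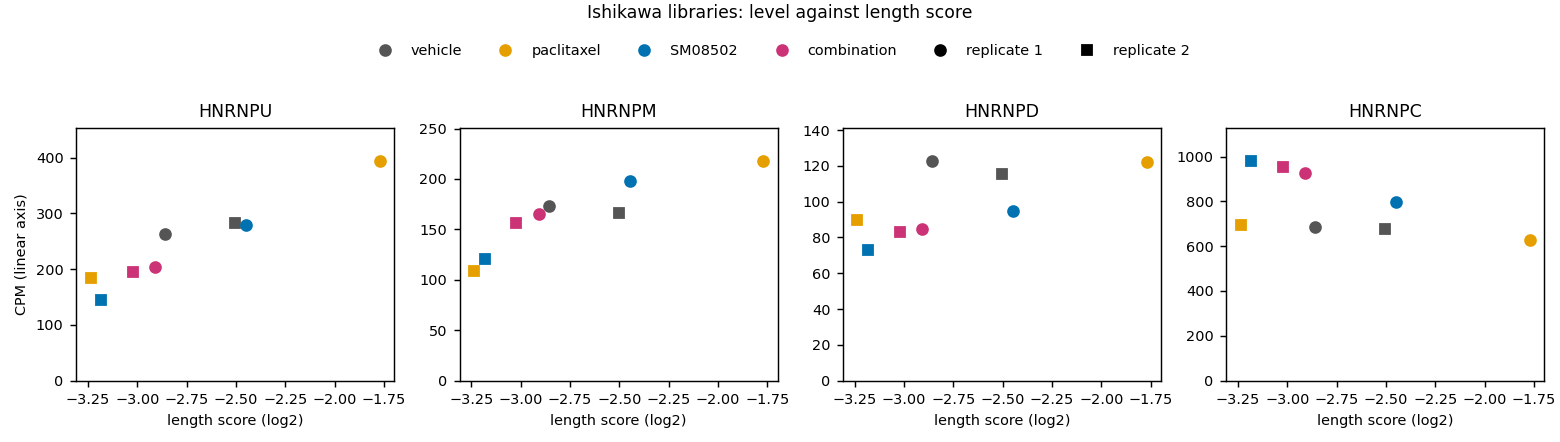
Level of HNRNPU, HNRNPM, HNRNPD and HNRNPC in the 8 Ishikawa libraries (y axis, CPM, linear from 0) against the length score of the library (x axis, log2), with treatment as colour and replicate as shape. HNRNPU runs from 145 CPM in a library scored -3.18 to 395 CPM in the library scored -1.77.

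Paclitaxel alone moved none of the 10 genes past the threshold: 0 were called in each line, where the share of all genes called was 0.0118% for Ishikawa, 0% for Ishikawa-S33Y, 0.0176% for SNGM and 0.00588% for HEC265. By limma 0 of the 10 had an unadjusted p under 0.05 in any line, and voom on recovered reads called 0. The Ishikawa paclitaxel replicates had length scores of -1.77 and -3.24. Calls for paclitaxel in Ishikawa depended on which Ishikawa libraries were kept, as given in the last section. Changes lay between -0.18 (HNRNPD in Ishikawa, 95% confidence interval -0.46 to 0.09) and 0.17 (HNRNPH1 in HEC265, -0.01 to 0.35). HNRNPD in HEC265 was at 314 and 301 CPM on paclitaxel against 307 and 306 CPM on vehicle, a change of 0.00 (-0.27 to 0.28). HNRNPA2B1 in Ishikawa-S33Y was at 397 and 403 CPM, a change of 0.07 (-0.20 to 0.34).

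Both drugs together were set against vehicle, using the same vehicle samples as above, and against SM08502 alone. Against vehicle HNRNPD in HEC265 was at 152 and 146 CPM, a change of -1.04 (SE 0.133, adjusted p = 1.26e-05). In Ishikawa it was at 85.0 and 83.2 CPM (-0.50, adjusted p = 0.0104), in Ishikawa-S33Y at 72.3 and 80.6 CPM (-0.71, adjusted p = 0.000218) and in SNGM at 154 and 131 CPM (-0.09, adjusted p = 0.707). SNGM was again the line in which treated and vehicle samples overlapped. HNRNPA2B1 in Ishikawa-S33Y was at 625 and 680 CPM (0.78, SE 0.13, adjusted p = 6.74e-05), HNRNPF in the same line at 242 and 257 CPM (0.49, adjusted p = 0.000249), and HNRNPH1 in HEC265 at 370 and 377 CPM (0.48, adjusted p = 0.000429). HNRNPC rose in Ishikawa to 927 and 952 CPM (0.46, adjusted p = 0.00597) and in Ishikawa-S33Y to 666 and 623 CPM (0.43, adjusted p = 0.00466), and HNRNPH1 rose in Ishikawa (0.30, adjusted p = 0.017). The Ishikawa calls of HNRNPD, HNRNPC and HNRNPH1 ended in a fit to that line alone (adjusted p = 0.174, 0.144 and 0.213).

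Counts against vehicle were 2 higher and 1 lower in Ishikawa (22.8% of all genes called, 11.6% higher and 11.2% lower). Ishikawa-S33Y gave 3 higher and 2 lower (42%, 24% and 18%). SNGM gave 1 and 1 (18.4%, 10.8% and 7.54%), as did HEC265 (19.5%, 12.4% and 7.16%). As a mean over lines 3 were higher and 2 lower (49.1%, 29% and 20.1%): HNRNPA2B1 by 0.35, HNRNPC by 0.35 and HNRNPH1 by 0.28 upward, and HNRNPD by -0.58 (adjusted p = 4e-07) and HNRNPL by -0.29. The SNGM calls were HNRNPC, at 864 and 1055 CPM (0.43, adjusted p = 0.0113), and HNRNPL, at 314 and 287 CPM (-0.42, adjusted p = 0.0214). Replicate 2 is the library of 1607038 reads, and without it and the other shallow library both calls ended (0.29 with adjusted p = 0.172 for HNRNPC and -0.36 with adjusted p = 0.152 for HNRNPL). HNRNPL also fell in Ishikawa-S33Y, to 253 and 266 CPM (-0.32, adjusted p = 0.0391), and this call ended whichever of its 4 libraries was left out.

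Against SM08502 alone the combination gave 0 calls among the 10 genes in each line. The share of all genes called was 0% for Ishikawa, 0.129% for Ishikawa-S33Y, 0.253% for SNGM and 0.00588% for HEC265. Unadjusted p-values under 0.05 (limma) were reached by 2 of the 10 for Ishikawa-S33Y, 1 for SNGM and 0 for the other lines, and voom on recovered reads called 0 in every line. Other alternatives did give a call: in SNGM without a filter and with the length score, and in Ishikawa-S33Y in a fit to that line alone. Replicate 2 of the combination is the shallow library in both lines, with 2991041 reads in Ishikawa-S33Y and 1607038 in SNGM. The largest difference was that of HNRNPH1 in SNGM, at 337 and 365 CPM on the combination against 278 and 263 CPM on SM08502 (0.37, 95% confidence interval 0.19 to 0.56, adjusted p = 0.066). For HNRNPD the difference was -0.30 in Ishikawa-S33Y (-0.58 to -0.02, adjusted p = 0.36) and -0.03 in HEC265 (-0.31 to 0.24). For HNRNPA2B1 it was 0.14 in Ishikawa-S33Y (-0.13 to 0.41).

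Other RNA-binding proteins were described by lists, beside the 38.5% of all genes called for the mean SM08502 change. Of 19 other hnRNP genes 3 rose and 2 fell, with a median change of 0.02 against 0.05 over all genes. HNRNPR, a relative of SYNCRIP, rose by 0.40 (SE 0.0519, adjusted p = 3.9e-06) and HNRNPA3 by 0.31 (adjusted p = 0.000974). HNRNPDL, the paralog of HNRNPD, fell by 0.37 on the log2 scale (SE 0.0522, adjusted p = 1.03e-05), and PCBP2, a poly(C)-binding protein related to HNRNPK, fell by 0.22 (adjusted p = 0.00372). HNRNPDL, like HNRNPD, had its largest fall in HEC265 (-0.67, adjusted p = 0.00015), while the SNGM change missed the threshold (-0.16, adjusted p = 0.458). It also fell in Ishikawa (-0.36, adjusted p = 0.0223) and Ishikawa-S33Y (-0.29, adjusted p = 0.0416).

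Of 12 SR proteins 2 rose and 4 fell (median -0.07). SRSF6 rose by 0.31 (SE 0.0424, adjusted p = 6.72e-06) and SRSF10 by 0.25 (adjusted p = 0.000467). SRSF2, the former SC35, fell by 0.53 (SE 0.0597, adjusted p = 6.29e-07) and SRSF8 by 0.29 (adjusted p = 0.000581). SRSF2 fell also in SNGM (-0.66, adjusted p = 0.00118), where 0 of the 10 hnRNP genes were called. Of 4 genes for nuclear import and arginine methylation of hnRNPs, PRMT5 rose by 0.29 (adjusted p = 0.000835) and PRMT1 fell by 0.29 (adjusted p = 0.00086). Of 16 other splicing regulators 4 rose and 3 fell (median 0.02). RBM39 rose by 0.36 (adjusted p = 7.65e-07) and RBM25 by 0.23 (adjusted p = 0.0403), while QKI fell by 0.37 (adjusted p = 0.000174) and RBFOX2 by 0.33 (adjusted p = 0.00295).

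The genes most like each of the 3 hnRNP genes with the largest mean SM08502 change were found by Pearson's r over the 16 group means of log2(CPM + 1) after subtracting each line's mean, among 8478 genes. They share libraries and depth with the gene they resemble. For HNRNPD they were IARS (r = 0.984), DEK (r = 0.976) and IGF2BP2 (r = 0.973). For HNRNPC they were PTCD3 (r = 0.977), CPSF6 (r = 0.977) and RTTN (r = 0.976), and for HNRNPA2B1 they were ZNF331 (r = 0.981), KLHL11 (r = 0.981) and FBXO7 (r = 0.980). Among the 10 genes themselves, on the same group means, HNRNPC and HNRNPK had r = 0.890 and HNRNPC and HNRNPL r = -0.931, the extremes of the 45 pairs.

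Reads from copies elsewhere in the genome could be split between rows. HNRNPA1 had 76 rows with the symbol of a copy, which held 2.16% to 5.51% of the reads of gene and copies together, HNRNPC had 17 with 0.155% to 1.22%, and HNRNPA2B1 had 0. For the other 7 genes the share was at most 1.23%. The closely related HNRNPH2 is a row of its own. Of the annotated genes in GRCh38.p14, HNRNPH1 and HNRNPL each overlap a noncoding gene, HNRNPK overlaps MIR7-1, HNRNPK-AS1 and RMI1, and HNRNPU overlaps SNORA100 and an unnamed protein-coding gene, and the strand of counting is not given in the sources used here. Overlap was judged from gene start to gene end, not by exon. Whether reads of these neighbours were counted to the gene therefore cannot be told. HNRNPD (chr4:82352498-82373991), HNRNPA2B1 (chr7:26189927-26200746) and HNRNPC (chr14:21209147-21269442) overlap no other annotated gene.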

How the data were processed

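The deposited values are log10 of CPM plus 1 for each gene and library, per the values of the authors' table. The submitters' processing notes name bcl2fastq, kallisto, STAR and GRCh38, without roles or versions; the counter, the annotation and its strand setting are not given in the sources used here. The plan had assumed log2 values, so CPM was recovered from log10 and the tests used log2(CPM + 1), a scale that understates changes of low genes. Whole reads were recovered for 100% of the low values, the only ones checked (within 0.01 read). Higher values were rounded to whole reads, and the totals gave depth. The filter required CPM above 1 in 2 or more samples. All 32 samples entered 1 fit in limma 3.58.1 under R 4.3.3, which gave each of 16 groups its own mean, with an intensity trend and 16 residual degrees of freedom. Tests were two-sided, p-values were adjusted over all 17011 genes by the Benjamini-Hochberg method, and confidence intervals were not adjusted. The code was tested on simulated data with independent duplicates and the same spread setting for every gene and group. That test does not measure error rates in these data, where duplicate spread differed between groups. Duplicate libraries differed by more than counting noise, and each entered the fit as 1 sample. Such differences do not show that the duplicates were independent. Same-numbered samples correlated from -0.65 to 0.86 in their deviations, so numbers did not pair samples in one way across treatments. In SNGM r was 0.84 for vehicle with paclitaxel, 0.60 for SM08502 with the combination and -0.65 to -0.56 across those pairs. In Ishikawa it was 0.44 to 0.86 among the drug groups and -0.57 to -0.07 between these and vehicle. The main fit does not model such shared variation. All 10 genes were named in every comparison, and of each other list the called genes with the 2 largest rises and 2 largest falls. The genes and lists were chosen with earlier results of these data known. Splicing tables were not analysed here.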

Additional observations from a re-analysis of the deposited data

Results flagged for a closer look

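HNRNPD was singled out because its SM08502 change differed between the 4 lines (interaction F-test in limma, adjusted p = 0.00791). The call held in 28 of 28 alternatives, with adjusted p from 0.000106 to 0.0323. HNRNPH1 was singled out for the same reason (adjusted p = 0.0296), with a change of 0.39 in HEC265 and -0.13 in SNGM. Its call held in 16 of 28 alternatives, with adjusted p up to 0.145 after re-centring on the median. SM08502 concentrations differed between the lines, so line and concentration cannot be told apart.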

How the results depend on the processing

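Over 22 counts of hnRNP genes called, 371 of 421 values under alternatives were equal or stayed within 1.5 times, which includes counts of 0 that stayed 0. Over 220 changes of single genes 3608 of 4090 values kept direction and side of the threshold, 139 lost a call and 134 gained one. A further 200 changed sign with no call in either fit, and 9 changed sign with a call in either. Values that moved follow, and the cause was not tested. Without a filter the combination against SM08502 in SNGM gave 1 call. Median re-centring gave 1 for SM08502 in HEC265, 1 for the combination in SNGM and 1 for the interaction F-test. The replicate block, which uses numbers that did not pair the samples in one way across treatments, gave 3 for Ishikawa-S33Y against Ishikawa. A fit to the line alone gave 0 for SM08502 and 0 for the combination in Ishikawa, 0 for the combination in SNGM and 1 for the combination against SM08502 in Ishikawa-S33Y. The length score covariate gave 4 for SM08502 in Ishikawa, 4 in HEC265, 5 for the combination in SNGM, 4 in HEC265, 1 for the combination against SM08502 in SNGM, 3 for Ishikawa-S33Y against Ishikawa and 6 for the interaction. Without the 2 shallow libraries the combination in SNGM gave 0. Without the 2 Ishikawa libraries of low length score Ishikawa gave 1 for SM08502, 6 for the combination, 2 for paclitaxel and 1 for the combination against SM08502, which also gave 1 in Ishikawa-S33Y and 1 in SNGM, and the interaction gave 4.

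With 1 library left out in turn, SM08502 gave 0 to 3 calls in Ishikawa, 1 in Ishikawa-S33Y whichever was left out, 1 to 2 in HEC265 and 4 to 5 for the mean. The combination gave 0 to 2 in Ishikawa, 4 in Ishikawa-S33Y, 0 to 3 in SNGM, 2 in HEC265 and 5 to 6 for the mean. Paclitaxel gave 0 to 1 in Ishikawa, the combination against SM08502 0 to 1 in SNGM, Ishikawa-S33Y against Ishikawa 4 to 5 and the interaction 1 to 3.

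The length score covariate turned the sign of 30 of 220 changes, 21 of them called in neither fit. The other 9 follow, and those between lines are extrapolations from differences between duplicates. Ishikawa-S33Y against Ishikawa became -0.30 for HNRNPD and -0.14 for HNRNPU. SNGM against Ishikawa became -0.14 for HNRNPA2B1, -0.45 for HNRNPD and -1.37 for HNRNPU. HEC265 against Ishikawa became -0.24 for HNRNPM and -0.036 for HNRNPU. The combination became 0.29 for HNRNPU in HEC265 and 0.14 for HNRNPM as the mean. Every gene had at least 181 reads in every library. That lowest count was in SNGM combination replicate 2, where HNRNPD had 211 reads and HNRNPF 256. These values are limited by the 2 samples in each group, by duplicate spread and, in the shallow libraries, by counting. Their shares were not tested for these genes.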
